A study of Mus musculus with 23 samples.

Results

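The genes of the lysophosphatidic acid (LPA) system were followed in hippocampal RNA-seq data. They were taken by symbol, and 8 of the 19733 genes in the table matched: the LPA receptors Lpar1 to Lpar6, the LPA-producing enzyme Enpp2 and the LPA-dephosphorylating enzyme Plpp3. The study asked how urolithin A (UA), a gut microbial metabolite of dietary polyphenols, acts on the brain of alcohol-fed mice. The hippocampi came from 23 male wild-type (WT) C57BL/6J mice obtained at 6 weeks of age. All groups were treated for 16 weeks, were tested for behavior for 1 week and received daily gavage with carboxymethylcellulose sodium (CMC-Na) solution. The Ctrl group held 9 mice on an AIN93M liquid diet without alcohol, and the EtOH group held 7 mice on the ethanol form of that diet. The EtOH-UA group (EtOH+UA in the sample annotations) held 7 mice on the ethanol diet whose gavage also contained UA at 200 mg/kg/day. No mouse received UA without ethanol. Values are FPKM, that is fragments counted per kilobase of a transcript and set against all fragments mapped in the library, so that levels of different genes can be set side by side.

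LPA is a lipid messenger that acts from outside the cell. Autotaxin, the secreted enzyme encoded by Enpp2, makes LPA from lysophosphatidylcholine, and lipid phosphate phosphatases such as that encoded by Plpp3 remove its phosphate at the cell surface. The receptors are G protein-coupled and form a pair of families, the EDG family (Lpar1, Lpar2, Lpar3) and a family related to P2Y purine receptors (Lpar4, Lpar5, Lpar6). In the brain, LPA signaling is known for its part in cortical development, in myelinating cells and in excitatory transmission, and autotaxin is made in quantity by the epithelium of the choroid plexus, which forms the cerebrospinal fluid.

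The libraries had summed FPKM of 327896 to 404609 and 16996 to 17413 genes above 0. Hippocampal markers were present in all 23 mice, among them Prox1 of granule cells (5.66 to 23.18 FPKM) and Neurod6 of pyramidal cells (71.3 to 132.87 FPKM). Markers of the choroid plexus, which lies against the hippocampus in the ventricle, differed far more between mice. Ttr (transthyretin), their most abundant member, ranged from 3.88 to 70.23 FPKM in 9 libraries and from 470.2 to 7704.77 FPKM in the other 14. These libraries are called low and high in choroid plexus below. The low libraries were 5 of 9 Ctrl, 1 of 7 EtOH and 3 of 7 EtOH-UA mice. All 12 choroid plexus markers were above 0 in every mouse, and their summed level had a median of 62.5 FPKM in Ctrl (9.35 to 3001), 1294 FPKM in EtOH (73.3 to 5817) and 1881 FPKM in EtOH-UA mice (17.7 to 7873).

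Enpp2 (chr15:54838901-54952789, GRCm38, minus strand) had the highest mean level of the 8 genes and by far the widest spread. Its level was 143 ± 130 FPKM in Ctrl (SD, n = 9), 256 ± 263 FPKM in EtOH (SD, n = 7) and 260 ± 241 FPKM in EtOH-UA mice (SD, n = 7). In Ctrl mice the lowest value was 32.2, the median 61.32 and the highest 380.8 FPKM. The EtOH mice ran from 59.78 over a median of 178.43 to 836.5 FPKM, and the EtOH-UA mice from 33.02 over a median of 240.19 to 683.27 FPKM. Low and high mice occurred in every group, and the groups overlapped. The highest mouse had 26.0 times the level of the lowest. The coefficient of variation (CV) over all mice was 98.6%, larger than that of 99.8% of the 12904 genes averaging 1 FPKM or more, whose median CV was 11.4%.

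Plpp3 (chr4:105157347-105232767, plus strand), which ends LPA signals at the cell surface and is abundant in astrocytes, was among the steadier genes, with a CV of 7.03%, larger than that of only 15.2% of the same genes. Its level was 83.2 ± 6.78 FPKM in Ctrl (SD, n = 9), 83.7 ± 4.51 FPKM in EtOH (SD, n = 7) and 80.5 ± 5.9 FPKM in EtOH-UA mice (SD, n = 7). The lowest mouse had 72.53 and the highest 92.69 FPKM, and the 3 groups covered much the same range. Enpp2 was above Plpp3 in 4 of 9 Ctrl, 6 of 7 EtOH and 4 of 7 EtOH-UA mice. The log2 ratio of Enpp2 to Plpp3 was 0.174 ± 1.44 in Ctrl, 1.16 ± 1.21 in EtOH mice and 0.979 ± 1.78 in EtOH-UA mice (SD), so the SD in each group was larger than any difference between the group means.

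**Figure D1:**
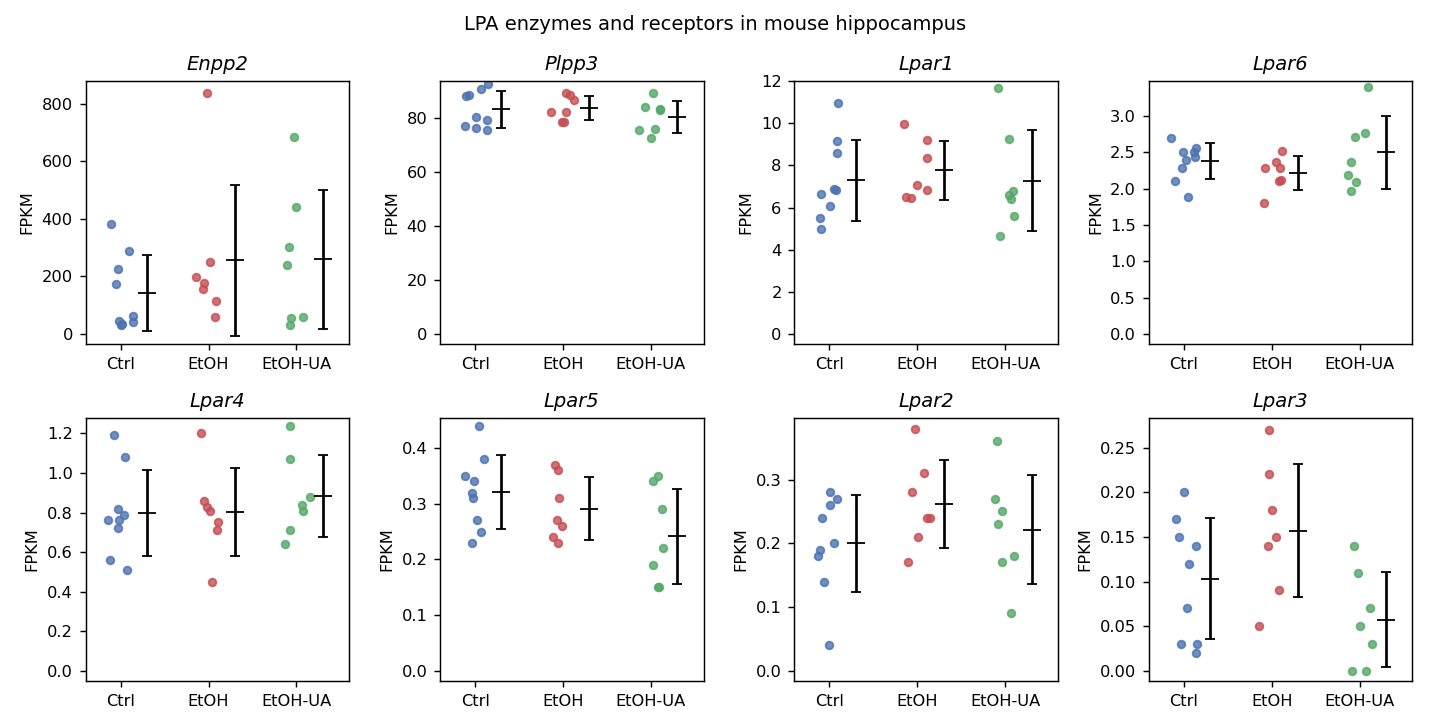
Level of the LPA enzymes and receptors in FPKM (y axis, a separate linear scale for each gene) by group (x axis: 9 Ctrl, 7 EtOH and 7 EtOH-UA mice). Points are mice, and the bars to their right show the mean and 1 SD. Enpp2 spans 32.2 to 836.5 FPKM with large overlap between groups, Plpp3 stays between 72.53 and 92.69 FPKM, and the EtOH-UA mice lie low for Lpar3, 2 of them at 0.

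Of the receptors, Lpar1 (chr4:58435252-58554027, minus strand), a receptor known for its expression in oligodendrocytes, was the most abundant. Its level was 7.29 ± 1.92 FPKM in Ctrl (4.97 to 10.94, median 6.84), 7.77 ± 1.39 FPKM in EtOH (6.47 to 9.95, median 7.09) and 7.28 ± 2.38 FPKM in EtOH-UA mice (4.65 to 11.65, median 6.61). The group medians lay close together, and the EtOH-UA group held both the lowest and the highest mouse. The CV of 25% was larger than that of 93.7% of genes averaging 1 FPKM or more. Lpar6 (chr14:73237891-73240358, plus strand), a receptor found in vessels and microglia, came second. It had 2.38 ± 0.249 FPKM in Ctrl (1.89 to 2.7), 2.21 ± 0.231 FPKM in EtOH (1.8 to 2.52) and 2.5 ± 0.498 FPKM in EtOH-UA mice (1.97 to 3.4). A single EtOH-UA mouse at 3.4 FPKM stood above the others. Lpar6 lies within the gene Rb1 on the opposite strand and their annotated exons overlap; Rb1 had a mean of 9.98 FPKM, and whether strand was used in the quantification is not given in the sources used here, so the split of reads between them is uncertain. Enpp2 likewise shares exonic positions with the noncoding gene Gm26684 on the opposite strand, whose level was not analysed here.

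The start sites of Lpar1, the most abundant receptor, and of Lpar3, the scarcest, are shown because Lpar1 varied with the oligodendrocyte markers and Lpar3 was the gene with an unadjusted difference between EtOH-UA and EtOH mice. Each sequence is the 250 bases before an annotated RefSeq start on GRCm38, written in the direction of transcription, and capitals mark the letters ACAAT and ACAAAG, cores recognized by SOX family factors, on either strand.
Lpar1, inner start, chr4:58499404-58499653, minus strand: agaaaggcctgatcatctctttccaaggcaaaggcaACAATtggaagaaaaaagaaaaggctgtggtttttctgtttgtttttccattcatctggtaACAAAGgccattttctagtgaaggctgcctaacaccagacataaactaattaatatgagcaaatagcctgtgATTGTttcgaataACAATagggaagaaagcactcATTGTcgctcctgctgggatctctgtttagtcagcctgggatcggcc
Lpar3, chr3:146220711-146220960, plus strand: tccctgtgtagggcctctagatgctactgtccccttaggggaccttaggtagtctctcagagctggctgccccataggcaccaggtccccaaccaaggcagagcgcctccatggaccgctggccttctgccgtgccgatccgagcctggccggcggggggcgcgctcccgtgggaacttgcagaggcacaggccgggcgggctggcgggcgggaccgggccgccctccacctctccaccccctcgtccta
The Lpar1 window belongs to a start inside the gene, in an intron of its longer transcripts; the other 2 annotated Lpar1 starts have exons in their windows and are not shown. It held ACAAT 4 times and ACAAAG 1 time, and the Lpar3 window held neither. The windows of the other 2 Lpar1 starts held ACAAT 0 times, and 1 of them held ACAAAG 1 time. Of 32851 such windows in the mouse genome, 27.7% held ACAAT and 16.5% held ACAAAG, and 0.259% held ACAAT 4 times or more. The longer form AACAAT, which contains ACAAT, was also searched and occurred 3 times in the Lpar1 window (9.42% of all windows hold it). The further motifs GAGGAAG and AGGAAGT (letters of ETS sites), TAATCC (of OTX2 sites), TATAAA (the TATA box) and CACGTG (the E-box), in either direction, were in neither window and in 10.6%, 7.69%, 6.25%, 12.4% and 6.02% of all windows. The pair also differed in CpG dinucleotides, with 3 in the Lpar1 and 17 in the Lpar3 window. The windows of the other 2 Lpar1 starts held 11 and 28, so the low count belongs to the inner start only. These matches describe letters and say nothing of binding in these mice.

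The remaining receptors were under 1 FPKM on average. Lpar4 (chrX:106920625-106933899), a receptor with a part in vessel formation, had 0.799 ± 0.219 FPKM in Ctrl, 0.801 ± 0.223 in EtOH mice and 0.884 ± 0.208 in EtOH-UA mice, between 0.45 and 1.24 FPKM in all. Lpar5 (chr6:125067844-125086129), a receptor of platelets and microglia, had 0.321 ± 0.066 FPKM in Ctrl (0.23 to 0.44, median 0.32), 0.291 ± 0.0564 in EtOH (0.23 to 0.37, median 0.27) and 0.241 ± 0.0853 in EtOH-UA mice (0.15 to 0.35, median 0.22). The Lpar5 medians were in the order Ctrl, EtOH, EtOH-UA from high to low, and the ranges overlapped. Lpar2 (chr8:69822565-69831102), a receptor reported at glutamatergic synapses, had 0.2 ± 0.076 FPKM in Ctrl, 0.261 ± 0.0691 in EtOH mice and 0.221 ± 0.0857 in EtOH-UA mice, with a range of 0.04 to 0.38. Lpar3 (chr3:146220961-146286214), known for its role in embryo implantation, had 0.103 ± 0.0675 FPKM in Ctrl (0.02 to 0.2, median 0.12), 0.157 ± 0.0748 in EtOH (0.05 to 0.27, median 0.15) and 0.0571 ± 0.0535 in EtOH-UA mice (0 to 0.14, median 0.05). Lpar3 was listed at 0 in 2 EtOH-UA mice.

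The order of the means, from Enpp2 down to Lpar3, held as a whole in 8 of 23 mice, while its middle part held in all. Plpp3 was above Lpar1, Lpar1 above Lpar6, Lpar6 above Lpar4 and Lpar4 above Lpar5 in 23 of 23 mice, and the ranges of these neighbors did not overlap. Lpar5 was above Lpar2 in only 15 of 23 mice, Lpar2 above Lpar3 in 22 of 23 and Enpp2 above Plpp3 in 14 of 23, and for these neighbors the ranges overlapped. The 6 receptors added up to 11.2 ± 2.04 FPKM (SD, n = 23). Lpar1 made up 65.4% of this sum, Lpar6 21.5%, Lpar4 7.48%, Lpar5 2.56%, Lpar2 2.09% and Lpar3 0.945%. These levels and shares depend on the transcript lengths used for the FPKM, which are not known here. For Lpar6 the GENCODE transcript of 5400 bases is longer than the RefSeq span given above, so its level and every share are uncertain to that extent. The sum was 11.1 ± 1.81 FPKM in Ctrl, 11.5 ± 1.6 in EtOH mice and 11.2 ± 2.86 in EtOH-UA mice, and the Lpar1 share was 64.9%, 67.3% and 64.3%.

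The effect of alcohol was examined by comparing EtOH with Ctrl mice, and that of UA by comparing EtOH-UA with EtOH mice; EtOH-UA was also set against Ctrl. These comparisons share mice. In limma none of the 8 genes passed an adjusted p of 0.05 in any of the 3 comparisons, and of the 15985 genes tested 0% passed in each. The groups overlapped for every gene in every comparison. At an unadjusted p under 0.05 in limma, 0 of 8 genes passed for EtOH against Ctrl (3.05% of all genes tested), 1 of 8 for EtOH-UA against EtOH (3.27%) and 1 of 8 for EtOH-UA against Ctrl (3.08%). By the exact permutation test 0, 1 and 0 of the 8 genes had a p under 0.05, where 3.45%, 2.93% and 3.04% of all genes did. The median log2 fold change of the 8 genes was 0.0621, -0.164 and 0.0182, against -0.00295, 0.0033 and 0.00238 over all genes tested.

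**Figure D2:**
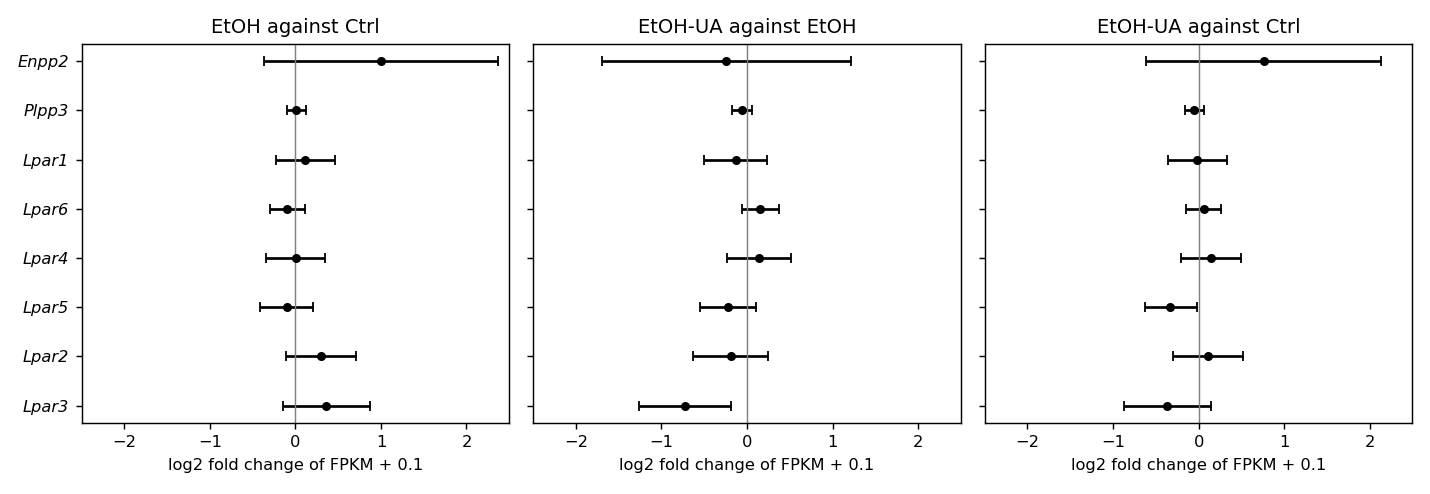
Log2 fold change of FPKM + 0.1 (x axis) of each gene (y axis) in the 3 comparisons, from limma over 23 mice. Points are estimates and bars 95% confidence intervals. All intervals include 0 except those of Lpar3 in EtOH-UA against EtOH (-1.26 to -0.19) and Lpar5 in EtOH-UA against Ctrl (-0.63 to -0.02), neither of which passed adjustment over all genes, and the interval of Enpp2 is the widest.

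Lpar3 was the gene that differed between EtOH-UA and EtOH mice before adjustment. All 7 EtOH-UA mice were below the EtOH median of 0.15 FPKM, while the ranges still overlapped (0 to 0.14 against 0.05 to 0.27 FPKM). The log2 fold change was -0.73 ± 0.26 (SE, limma p = 0.0101, adjusted p = 0.9), and the two-sided exact permutation test of the mean FPKM over 3432 splits gave p = 0.0181. This value depends on the pseudocount: it was -0.13 with a pseudocount of 1 and -1.76 with 0.01 (limma adjusted p = 0.905 and 0.897). Without the EtOH mouse highest in Lpar3 (0.27 FPKM) it was -0.63 (limma adjusted p = 0.988). For EtOH against Ctrl the log2 fold change was 0.36 ± 0.25 (SE, limma adjusted p = 0.999) and for EtOH-UA against Ctrl -0.37 ± 0.25 (SE, limma adjusted p = 0.999). Lpar3 was among the genes the study selected from these same mice, so its difference here is not independent evidence. From the steps between low FPKM values the depth was estimated at 16.9 fragments per kilobase at 1 FPKM, which puts Lpar3 at about 6.54 fragments per EtOH mouse and 2.38 per EtOH-UA mouse. At that depth counting alone gives an SD of 0.0614 and 0.037 FPKM, next to observed SDs of 0.0748 and 0.0535 FPKM, so the counting error was not far below the whole spread between mice.

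The Lpar3 difference was also read within the libraries low and high in choroid plexus. In the high libraries Lpar3 had 0.145 ± 0.0208 FPKM in 4 Ctrl mice, 0.16 ± 0.0815 FPKM in 6 EtOH and 0.0725 ± 0.0479 in 4 EtOH-UA mice. In the low libraries it had 0.07 ± 0.0752 FPKM in 5 Ctrl, 0.14 in the only EtOH mouse and 0.0367 ± 0.0635 in 3 EtOH-UA mice. The fit with the choroid plexus score as a covariate used a single slope over all mice. Pearson's r of Lpar3 with that score was 0.51 in the low and -0.82 in the high libraries. Such a slope cannot take out a relation that differs between the low and high libraries. With that covariate the log2 fold change of EtOH-UA against EtOH was -0.69 (limma adjusted p = 0.908), against -0.73 without it. Without the 2 mice with the highest choroid plexus score it was -0.81 (limma adjusted p = 1.0).

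Lpar5 was the gene with an unadjusted difference between EtOH-UA and Ctrl mice, with a log2 fold change of -0.33 ± 0.15 (SE, limma adjusted p = 0.999). With a pseudocount of 1 or 0.01 it was -0.09 or -0.44. The exact permutation p of the mean FPKM over 11440 splits was 0.0584, and 5 of 7 EtOH-UA mice were below the Ctrl median. The step from Ctrl to EtOH was -0.10 ± 0.15 and that from EtOH to EtOH-UA -0.22 ± 0.16 on the log2 scale (SE, limma adjusted p = 0.999 and 0.9). In the high libraries Lpar5 had 0.32 ± 0.0548 FPKM in Ctrl (n = 4) and 0.213 ± 0.0591 FPKM in EtOH-UA mice (n = 4), and in the low libraries 0.322 ± 0.0804 (n = 5) and 0.28 ± 0.113 FPKM (n = 3).

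Enpp2 had the largest estimates in both comparisons with Ctrl, while for EtOH-UA against EtOH that of Lpar3 (-0.73) was the largest in size. In every comparison the estimate of Enpp2 was the least certain. Its log2 fold change was 1.0 ± 0.66 for EtOH against Ctrl (SE, 95% confidence interval -0.37 to 2.37, limma adjusted p = 0.999) and 0.76 ± 0.66 for EtOH-UA against Ctrl (SE, limma adjusted p = 0.999). For EtOH-UA against EtOH it was -0.24 ± 0.71 (SE, 95% confidence interval -1.70 to 1.21, limma adjusted p = 0.956). The sign of the last value belongs to the log scale: the EtOH-UA mice were above the EtOH mice in mean FPKM (260 against 256) and in median FPKM (240.19 against 178.43). On the same log scale 12 of 12 choroid plexus markers were higher in EtOH than in Ctrl mice (median log2 fold change 1.66) and 12 of 12 were lower in EtOH-UA than in EtOH mice (-0.461), none of them past an adjusted p of 0.05 in limma. By the median of their summed FPKM the EtOH-UA mice were instead above the EtOH mice (1881 against 1294 FPKM), and 3 of 7 EtOH-UA against 1 of 7 EtOH libraries were low. Markers of the ependyma, the lining of the ventricles, were also higher in EtOH than in Ctrl mice in 6 of 6 (median log2 fold change 0.93), again with none past adjustment. With the choroid plexus score as a covariate the Enpp2 log2 fold changes became -0.23 for EtOH against Ctrl (limma adjusted p = 1.0), 0.10 for EtOH-UA against EtOH (limma adjusted p = 0.908) and -0.13 for EtOH-UA against Ctrl (limma adjusted p = 1.0). The estimate of -0.23 had an unadjusted limma p of 0.0251. Within the low libraries Enpp2 had 43.0 ± 11.8 FPKM in Ctrl (n = 5), 59.8 FPKM in the EtOH mouse and 50.0 ± 14.8 FPKM in EtOH-UA mice (n = 3), and within the high libraries 267 ± 88.8 (n = 4), 289 ± 272 (n = 6) and 417 ± 196 FPKM (n = 4). Without the EtOH mouse at 836.5 FPKM the log2 fold change of EtOH against Ctrl was 0.64. In whole tissue, more cells of a type and more RNA per cell cannot be told apart.

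For the other 5 genes every 95% confidence interval included 0. The intervals of Plpp3 were the narrowest, with log2 fold changes of 0.01 for EtOH against Ctrl (-0.10 to 0.12), -0.06 for EtOH-UA against EtOH (-0.18 to 0.06) and -0.05 for EtOH-UA against Ctrl (-0.16 to 0.06). For Lpar1 they were 0.11 (-0.23 to 0.46), -0.13 (-0.50 to 0.23) and -0.02 (-0.36 to 0.33), and for Lpar6 -0.10 (-0.30 to 0.11), 0.15 (-0.06 to 0.37) and 0.06 (-0.15 to 0.26). The low receptors Lpar2 and Lpar4 had wider ones, for EtOH against Ctrl -0.11 to 0.71 around 0.30 and -0.34 to 0.35 around 0.002. Differences inside these limits remain compatible with the values of these mice, and the intervals do not show that the groups were equal.

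Mice of one group differed from each other, and 10 lists of cell type markers were used to see with what each gene varied. Each marker list was averaged into a score per mouse on the log2 scale. Group means were removed for correlations over all 23 mice. They were kept in every correlation within the low or high libraries, whichever the list. The choroid plexus score fell into the separate low and high clusters, so correlations with it were taken only within these, without removing group means. This gave 88 pairs, 72 over all 23 mice and 16 within clusters. Of these, 7 pairs passed an adjusted permutation p of 0.05 by Pearson's r and 6 by Spearman's rho. The points of each pair share the library and its scaling.

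**Figure D3:**
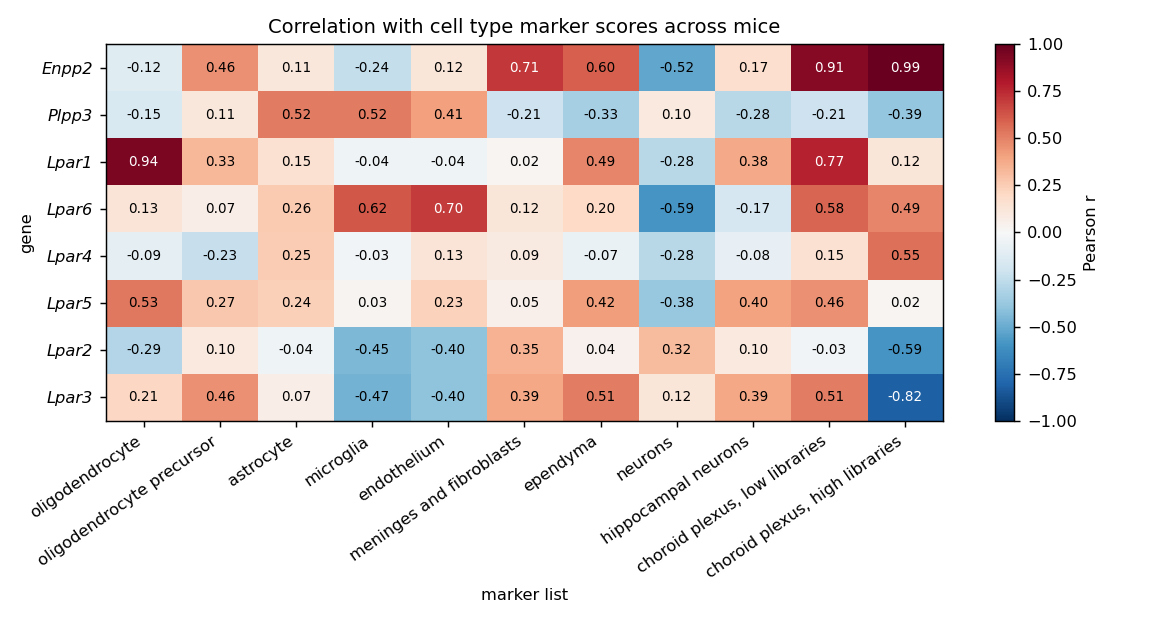
Pearson's r between the log2 level of each gene (y axis) and the score of each marker list (x axis), over 23 mice after removal of group means, or, for the choroid plexus, within the 9 low and the 14 high libraries. Color and number give r from -1 to 1. The strongest entries are Enpp2 with choroid plexus (0.91 and 0.99), Lpar1 with oligodendrocyte (0.94) and, below 0, Lpar3 with choroid plexus in the high libraries (-0.82).

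Enpp2 followed the choroid plexus markers. Over the 14 high libraries r was 0.99 (rho = 0.99, permutation p = 1e-05 for each, the smallest that 100000 permutations can give, adjusted p = 0.00044), and it was 0.99 again without the 2 mice farthest from the median score. Over the 9 low libraries r was 0.91 (exact p = 0.00376, adjusted p = 0.0473; rho = 0.83, exact p = 0.00827, adjusted p = 0.0949; r = 0.91 without the 2 farthest mice). In the low libraries, where choroid plexus markers summed to 9.35 to 83.8 FPKM, Enpp2 also followed the oligodendrocyte markers with r = 0.95 (exact p = 0.000728, adjusted over 160 within-cluster pairs 0.0166; rho = 0.92, exact p = 0.00131; r = 0.91 without 2 mice). It also followed precursor (r = 0.89, rho = 0.80, exact p = 0.00139 and 0.0138, adjusted p = 0.0248 and 0.152) and ependymal markers there (r = 0.87, rho = 0.77, exact p = 0.00523 and 0.0214, adjusted p = 0.0492 and 0.171). In the high libraries r was -0.01 with oligodendrocyte (rho = -0.13, permutation p = 0.968 for r), -0.07 with precursor and 0.52 with ependymal markers. The marker scores were not adjusted for each other, so the relations of Enpp2 with these lists cannot be told apart in the 9 low libraries. Enpp2 is known to be made by choroid plexus epithelium and oligodendrocytes, and whether r differs between the clusters was not tested. Its r with markers of meninges and fibroblasts over 23 mice was 0.71 (rho = 0.72, permutation p = 0.00059 and 0.00047, adjusted p = 0.0104 and 0.0138; r = 0.66 without 2 mice), but within the low and high libraries it was 0.62 and 0.41, neither past adjustment (adjusted p = 0.299 and 0.41).

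**Figure D4:**
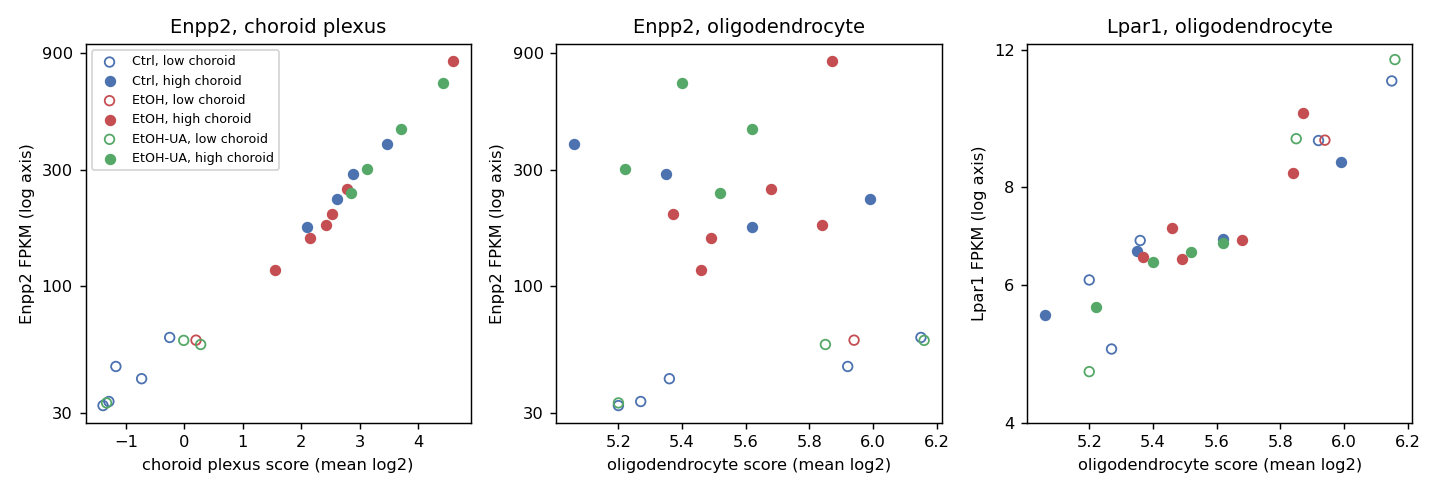
Level in FPKM (y axis, log scale) against a marker score (x axis, mean log2 of FPKM + 0.1 over the list) in 23 mice; colors are groups, open circles the 9 low and filled circles the 14 high choroid plexus libraries. Enpp2 climbs with the choroid plexus score (left, r = 0.91 and 0.99 within the clusters) and, among open circles, with the oligodendrocyte score (middle, r = 0.95, and -0.01 among filled ones), while Lpar1 climbs with the oligodendrocyte score in both (right, r = 0.96 and 0.90).

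Lpar1 followed the oligodendrocyte markers, with r = 0.94 over 23 mice (rho = 0.93, permutation p = 1e-05 for each, adjusted p = 0.00044; r = 0.90 without the 2 farthest mice). The relation was present in both clusters, with r = 0.96 in the 9 low libraries (rho = 0.93, exact p = 0.000146 and 0.00075) and 0.90 in the 14 high ones (rho = 0.85, permutation p = 1e-05 and 0.00014). With markers of oligodendrocyte precursors r over 23 mice was 0.33 (rho = 0.30, permutation p = 0.177 and 0.195), but within the 9 low libraries it was 0.93 (rho = 0.87, exact p = 0.000626 and 0.00451, adjusted p = 0.0166 and 0.0656; r = 0.80 without 2 mice), near that with oligodendrocyte markers, and within the 14 high ones -0.10. The summed oligodendrocyte markers had a median of 1430 FPKM in Ctrl (1151 to 2488), 1953 FPKM in EtOH (1511 to 2192) and 1577 FPKM in EtOH-UA mice (1280 to 2594), and with the oligodendrocyte score as a covariate the Lpar1 log2 fold change of EtOH against Ctrl went from 0.11 to -0.003.

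Lpar6 varied with endothelial markers (r = 0.70, rho = 0.65, permutation p = 0.00041 and 0.00154, adjusted p = 0.00902 and 0.0271; r = 0.59 without 2 mice). Within the low and high libraries these r were 0.40 and 0.80 (adjusted p = 0.6 and 0.0112). With microglial markers r was 0.62 (rho = 0.57, permutation p = 0.00328 and 0.00883, adjusted p = 0.0473 and 0.0949), which dropped to 0.43 without the 2 farthest mice and was -0.02 in the low and 0.74 in the high libraries. Over all mice Plpp3 had r = 0.52 with both astrocyte and microglial markers (rho = 0.50 and 0.61), past adjustment only for rho with microglia (permutation p = 0.00282, adjusted p = 0.0414). Within the 9 low libraries its r with microglial markers was 0.88 (rho = 0.90, exact p = 0.00185 and 0.00203, adjusted p = 0.0272 and 0.0464). This r was 0.87 without 2 mice, and r with astrocyte markers was 0.36 there (adjusted p = 0.634). Within the 14 high libraries r was 0.27 with microglial and 0.57 with astrocyte markers, neither past adjustment (adjusted p = 0.663 and 0.164). Lpar3 was lower where choroid plexus markers were higher among the 14 high libraries, with r = -0.82 (rho = -0.81, permutation p = 0.00031 and 0.00064, adjusted p = 0.00902 and 0.0141; r = -0.68 without 2 mice); in the 9 low libraries r was 0.51 (exact p = 0.163), and at the few fragments given above this rests on sparse values. The r of -0.82 kept the group means. In these high libraries the EtOH-UA mice had less Lpar3 (0.0725 FPKM) than the EtOH (0.16) and Ctrl mice (0.145). The part of that group difference in r was not tested. Lpar2, Lpar4 and Lpar5 had none of the 88 pairs past an adjusted p of 0.05. When all lists were taken within the clusters, 17 of 160 pairs passed by r, among them Lpar2 in the high libraries with endothelial (r = -0.72, rho = -0.73, permutation p = 0.00237 and 0.00392, adjusted p = 0.0287 and 0.0627; r = -0.65 without 2 mice) and microglial markers (r = -0.71, rho = -0.58, permutation p = 0.00462 and 0.0313, adjusted p = 0.0462 and 0.211; r = -0.54 without 2 mice).

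The genes whose variation between mice was most like that of each receptor or enzyme were sought among 12903 others averaging 1 FPKM or more, for the 4 LPA genes above that level. For Lpar1 they included Prr5l (r = 0.92, 23 mice) and the creatine-synthesis enzyme gene Gatm (0.92). For Enpp2 they were the tight junction gene Cldn2, Mfrp and the coagulation factor gene F5, each with r = 0.99 over mice that form the low and high clusters; Cldn2 was also one of the choroid plexus markers. Lpar6 was most like Cyth4 (0.84), Parvg (0.81) and Elk3 (0.81), and Plpp3 most like Ddah1 (0.85), Sfxn5 (0.83) and the GABA transporter gene Slc6a11 (0.83). These r describe the closest of many genes and carry no test.

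The rest of the pathway was read from 66 genes in 7 lists, of which 61 were tested. None passed an adjusted p of 0.05 in limma in any comparison. At an unadjusted p under 0.05, 1 of 61 passed for EtOH against Ctrl (1.64%), 0 for EtOH-UA against EtOH and 3 for EtOH-UA against Ctrl (4.92%), shares that can be read against the 3.05%, 3.27% and 3.08% of all genes. Among 13 tested genes of LPA supply, Pla1a, a phospholipase that releases lysophospholipids, had 0.72 ± 0.257 FPKM in Ctrl (n = 9), 0.886 ± 0.201 in EtOH mice and 1.0 ± 0.22 in EtOH-UA mice (n = 7 each), a log2 fold change of 0.46 for EtOH-UA against Ctrl (limma adjusted p = 0.999). Among 10 genes of LPA removal, Agpat5, an acyltransferase that turns LPA into phosphatidic acid, had 12 ± 0.509 FPKM in Ctrl, 12.9 ± 0.667 in EtOH mice and 13.1 ± 1.01 in EtOH-UA mice. Its log2 fold changes against Ctrl were 0.11 in EtOH (limma adjusted p = 0.999) and 0.12 in EtOH-UA mice (limma adjusted p = 0.999). Of the 11 genes of the related sphingosine-1-phosphate system, Sgpl1, the lyase that degrades this lipid, had 11.8 ± 0.81 FPKM in Ctrl and 10.9 ± 0.689 FPKM in EtOH-UA mice (log2 fold change -0.12, limma adjusted p = 0.999), with 11.4 ± 0.898 FPKM in EtOH mice.

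The other lists held no gene past an unadjusted p of 0.05. Of the 5 plasticity-related genes, phosphatase-like partners of LPA signaling in neurons, Plppr2 had 70.8 ± 3.68 FPKM in Ctrl and 68.3 ± 7.23 FPKM in EtOH mice (limma adjusted p = 0.999). Gpr35, the only tested gene among 3 further receptors reported for LPA, had 0.974 ± 0.192, 1.07 ± 0.117 and 0.984 ± 0.198 FPKM in the 3 groups.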

How the data were processed

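Hippocampal RNA of 23 mice was sequenced, and the authors deposited 1 table of FPKM per gene to 2 decimals. Per the methods, poly(A)+ RNA was read in pairs on a BGISEQ instrument, aligned to mm10 with Bowtie2 and quantified with RSEM; the sample annotations instead name total RNA and an MGISEQ protocol. The submitters' processing notes list HISAT2 2.1.0, Bowtie2 2.2.5, RSEM 1.2.8, StringTie and DESeq. Strandedness is not given in the sources used here. Columns were matched to the 3 groups by name. The annotations do not say how the mice relate by litter. Per the methods several mice shared a cage, and the cage of each mouse is not given. The p-values therefore measure the spread between these mice and take no account of litter or cage.

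From the deposited FPKM, log2(FPKM + 0.1) was computed for the 15985 genes averaging 0.1 FPKM or more and fitted in limma 3.58.1 (R 4.3.3) as 1 model of 3 groups with an intensity trend and Benjamini-Hochberg adjustment over all genes, with a threshold of 0.05. All 8 LPA genes passed the filter, Lpar3 with a mean of 0.106 FPKM. A fold change on this scale understates that of low genes. The count test of the methods was not rerun because FPKM are not counts. Single genes were compared by two-sided exact permutation of mean FPKM (11440 or 3432 splits). Correlations used 100000 permutations within groups, or within the 14 high libraries, and all 362880 pairings for 9 mice. The fit was tested on simulated data before use.

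Depth was inferred from steps among low FPKM values of 21 genes with even steps (median 16.9 fragments per kilobase at 1 FPKM, quartiles 15.6 and 17.1). It uses full transcript lengths and is a rough value; counting errors derived from it cover counting only. Coordinates come from RefSeq on GRCm38 (mm10), transcript lengths and overlaps from GENCODE, and promoter windows from RefSeq on the same build, which held 7 of the 8 genes.

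The LPA genes and all gene and marker lists were chosen with earlier results of these data known. The text names all 8 LPA genes, the 3 most alike genes of each that averages 1 FPKM or more, genes overlapping them, pathway genes with the smallest p in their list, and marker genes that touch a result; further values are counts. Some genes that this rule names are not reported here. Alternatives comprised pseudocounts of 1 and 0.01, no filter or a mean of 1 FPKM, only the mice compared, upper-quartile and quantile scaling, robust eBayes, array quality weights, marker scores as covariates and each mouse left out; both scores together, leaving out the 2 mice highest in choroid plexus, the split into low and high libraries and 1 fit that keeps Lpar3 when its highest mouse is left out were added after seeing the data.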

Additional observations from a re-analysis of the deposited data

Results flagged for a closer look

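Among the 24 sets of values formed by 8 genes and 3 groups, 1 held a mouse far from the rest of its group. The highest EtOH mouse had 836.5 FPKM of Enpp2, the next 249.74 and the lowest 59.78 FPKM, so the gap took up 0.755 of the group's range. If the FPKM of each set were normally distributed, chance alone would give about 1.2 such sets among 24. That assumption was not checked. The rule was applied to FPKM and not to log2 values, on which such a gap can be smaller, so the flag may depend on the scale. The same mouse had the highest choroid plexus score of the EtOH group; the part of this in its Enpp2 level was not tested.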

How the results depend on the processing

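No LPA gene passed an adjusted p of 0.05 in limma in any comparison under any alternative, with 0 to 1 of all genes tested past it: array quality weights gave 1 gene for EtOH against Ctrl, and leaving out 1 mouse gave 0 to 1 in each comparison. The permutation test on log2(FPKM + 0.1) in place of FPKM gave 1 LPA gene for EtOH-UA against Ctrl (Lpar5, exact p = 0.0458) in place of 0. Estimates that changed sign did so around small or uncertain values, on the log2 scale as follows. With the choroid plexus score as covariate Enpp2 went to -0.23 (EtOH against Ctrl), 0.10 (EtOH-UA against EtOH) and -0.13 (EtOH-UA against Ctrl), with both scores to -0.24, 0.11 and -0.13. For Lpar4 in EtOH against Ctrl the choroid plexus score gave -0.01, quantile normalization -0.05 and leaving out the 2 mice highest in choroid plexus -0.09. For Lpar1 in EtOH against Ctrl the oligodendrocyte score gave -0.003 and both scores -0.02; array quality weights gave 0.01 in EtOH-UA against EtOH and 0.08 in EtOH-UA against Ctrl. In the latter, leaving out the 2 mice gave 0.0001 for Lpar1 and -0.02 for Lpar6. Leaving out each mouse in turn gave -0.006 to 0.03 for Plpp3 and -0.09 to 0.11 for Lpar4 in EtOH against Ctrl, -0.59 to 0.13 for Enpp2 in EtOH-UA against EtOH, and -0.14 to 0.08 for Lpar1, -0.02 to 0.22 for Lpar2 and -0.02 to 0.11 for Lpar6 in EtOH-UA against Ctrl. Lpar3 in EtOH-UA against EtOH was between -0.85 and -0.63; without the EtOH mouse highest in Lpar3 the gene falls under the filter, and its value of -0.63 there uses the genes kept by the mean of all 23 mice. With a pseudocount of 1 or 0.01 it was -0.13 or -1.76. The cause of these changes was not tested. The count of 7 correlated pairs was 9 without removal of group means and 6 with a pseudocount of 1. No paired analysis was possible because the columns carry no replicate numbers. They carry mouse numbers instead. The methods assign mice to groups at random, and the sources used here do not say that equal replicate numbers mark matched mice. Genes under 1 FPKM rest on fewer fragments, which limits Lpar2 to Lpar5 to differing degrees. Over all mice the estimate was 4.4 fragments per mouse for Lpar3 and 59.1 for Lpar4.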
